A study of Mus musculus with 4 samples.

Results

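The 4 Hox gene clusters of the mouse were described through the CpGs lying in 4 windows of the mm9 genome build: HoxA at chr6:52100000-52220000, HoxB at chr11:96050000-96235000, HoxC at chr15:102740000-102870000 and HoxD at chr2:74490000-74610000. Members were all CpGs in these windows with at least 10 reads in each of 4 libraries, which left 2721 of the 5018 listed there, out of 1045368 such CpGs in the whole series. The choice used position and read depth, not methylation. HoxA held 711 of the members, HoxB 643, HoxC 499 and HoxD 868. The windows were drawn around 38 Hox genes.

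The study used reduced representation bisulfite sequencing (RRBS), in which MspI-cut fragments of 40 to 220 bp are bisulfite-treated and sequenced, so that mainly CpG-rich DNA is read and methylated cytosines are told from unmethylated ones. The cells were secondary mouse embryonic fibroblasts (MEFs) of a 129/SvJ x C57/B6 hybrid background, which carry doxycycline-inducible reprogramming factors. The control library came from uninduced MEFs, and 3 libraries came from MEFs that had spent 96 hours in doxycycline and had divided on average 0 times, 1 time or more than 3 times, called 0Div, 1Div and >3Div as in their labels. Together they ask how methylation at the start of reprogramming goes with cell division. The labels of the last cohort differ on whether it includes cells with exactly 3 divisions, and they do not say which cohorts received the serum starvation medium (0.5% serum) in place of the doxycycline medium (15% serum). Doxycycline time was the same in 0Div, 1Div and >3Div, so medium and division number cannot be told apart among these 3, and against control doxycycline is added to them. All groups share the inducible transgenes, and the factors are not named in the labels. Each group had 1 library, so every test below compares libraries and not conditions, and no spread between cultures is known. No expression was measured, and the cell type was not checked against marker genes.

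Hox genes encode homeodomain transcription factors that set positional identity along the body axis. In each cluster the genes lie in the order in which they act, from anterior genes at one end to posterior genes at the other, and fibroblasts keep a Hox expression pattern that reflects where in the body they arose. Hox clusters are CpG-rich, and inactive Hox genes are typically covered by Polycomb proteins, which occupy CpG islands that carry little DNA methylation.

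An annotation on the mm9 build was not used here, so positions were not assigned to exons or introns. Hox gene starts were instead located by matching the spacing of CGs in RefSeq promoter sequences to the deposited CpG positions. RefSeq sequences were at hand for 22 of the 38 genes, and 11 of these were placed: 4 of 10 HoxA genes, 7 of 9 HoxD genes, and none of 10 HoxB and 9 HoxC genes. The promoter sequences below, from RefSeq (GRCm38.p6), cover 250 bases before to 50 after the start. Of those shown, 5 are given because they were partly methylated, and Hoxa13 and Hoxd13, the most posterior genes of their clusters, because they were close to unmethylated. Capitals mark the CGs at which methylation was measured in all 4 libraries.

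Hoxa5, at chr6:52154536-52154835, minus strand: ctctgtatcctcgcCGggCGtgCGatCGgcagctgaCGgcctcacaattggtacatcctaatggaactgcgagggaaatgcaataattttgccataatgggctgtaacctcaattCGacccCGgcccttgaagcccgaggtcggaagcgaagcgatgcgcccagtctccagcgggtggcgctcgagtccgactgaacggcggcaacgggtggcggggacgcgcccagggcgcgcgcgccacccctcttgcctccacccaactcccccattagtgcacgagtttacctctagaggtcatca
Hoxa6, at chr6:52158621-52158920, minus strand: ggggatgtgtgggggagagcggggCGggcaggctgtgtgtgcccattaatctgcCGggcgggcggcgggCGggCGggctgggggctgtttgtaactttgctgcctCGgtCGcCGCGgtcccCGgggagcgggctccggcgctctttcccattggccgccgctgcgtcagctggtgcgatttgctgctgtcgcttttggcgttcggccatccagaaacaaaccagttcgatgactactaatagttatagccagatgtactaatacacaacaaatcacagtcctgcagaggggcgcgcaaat
Hoxd9, at chr2:74535569-74535868, plus strand: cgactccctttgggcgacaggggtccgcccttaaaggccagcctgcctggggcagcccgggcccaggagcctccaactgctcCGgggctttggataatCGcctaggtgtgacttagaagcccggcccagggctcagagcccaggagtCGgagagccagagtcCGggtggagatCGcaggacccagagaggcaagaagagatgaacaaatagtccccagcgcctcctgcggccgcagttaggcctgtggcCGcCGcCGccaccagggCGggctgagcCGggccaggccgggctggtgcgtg
Hoxd10, at chr2:74529697-74529996, plus strand: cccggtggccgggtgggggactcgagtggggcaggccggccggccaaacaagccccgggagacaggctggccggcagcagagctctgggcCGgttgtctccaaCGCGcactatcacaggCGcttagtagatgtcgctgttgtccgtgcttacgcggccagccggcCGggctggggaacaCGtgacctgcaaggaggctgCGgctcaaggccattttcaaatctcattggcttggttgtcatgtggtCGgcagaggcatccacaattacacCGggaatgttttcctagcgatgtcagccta
Hoxd12, at chr2:74512819-74513118, plus strand: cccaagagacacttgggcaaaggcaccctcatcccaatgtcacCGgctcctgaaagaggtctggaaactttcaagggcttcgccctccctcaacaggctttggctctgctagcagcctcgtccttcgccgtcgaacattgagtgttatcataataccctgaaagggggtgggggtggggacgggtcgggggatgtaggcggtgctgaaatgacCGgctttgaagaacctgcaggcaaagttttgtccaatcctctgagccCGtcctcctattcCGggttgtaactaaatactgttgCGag
Hoxa13, at chr6:52210824-52211123, minus strand: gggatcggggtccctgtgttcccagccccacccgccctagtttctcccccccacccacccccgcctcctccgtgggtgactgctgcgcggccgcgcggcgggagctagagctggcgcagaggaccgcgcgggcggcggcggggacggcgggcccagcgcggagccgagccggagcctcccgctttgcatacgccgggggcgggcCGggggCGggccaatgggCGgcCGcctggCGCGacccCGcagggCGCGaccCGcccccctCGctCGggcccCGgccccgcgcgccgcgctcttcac
Hoxd13, at chr2:74506031-74506330, plus strand: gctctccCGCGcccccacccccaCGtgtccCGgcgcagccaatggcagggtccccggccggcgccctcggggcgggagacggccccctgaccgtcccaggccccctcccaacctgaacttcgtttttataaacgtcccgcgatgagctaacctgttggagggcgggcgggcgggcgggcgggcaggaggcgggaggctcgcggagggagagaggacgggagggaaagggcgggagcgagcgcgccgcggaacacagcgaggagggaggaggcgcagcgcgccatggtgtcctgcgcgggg

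The libraries held between 84606824 (control) and 94775128 (>3Div) reads over CpGs, of which 194794 to 276564 lay in the Hox windows. The median depth of a tested Hox CpG was 62 reads in control, 57 in 0Div, 61 in 1Div and 79 in >3Div. Depth in >3Div moved with methylation: relative to control it was 1.59-fold at Hox CpGs under 5% in control and 0.692-fold at those at or over 80%, and the genome-wide ratios were 1.64 and 0.720. The part of this in the differences below was not tested, but they were recomputed with each CpG thinned to the lowest of its 4 depths.

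The Hox clusters were weakly methylated in uninduced MEFs, and few of their CpGs were near full methylation. Averaged with equal weight per CpG, methylation in control was 16.9% in HoxA, 10.0% in HoxB, 10.6% in HoxC and 14.2% in HoxD, against 42.4% over all tested CpGs. Of the Hox CpGs, 48.4% were under 5%, 28.5% between 5% and 20%, 21.4% between 20% and 80%, and 1.73% at or over 80%. Over all tested CpGs the same shares were 41.1%, 6.52%, 18.2% and 34.2%. The Hox clusters thus had a smaller share of sites at or over 80% and a larger share between 5% and 20%. Low levels as such were common in CpG-rich DNA. In 10 kb bins with at least 20 tested CpGs the median control level was 8.79% in the Hox windows (45 bins) and 7.36% over the genome (13012 bins), and 22.2% of the Hox bins and 42.0% of all bins were under 5%. The 47 CpGs at or over 80% comprised 29 in HoxA, 8 in HoxB and 10 in HoxD, and HoxC had none.

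Hox CpGs with few listed neighbours were far less methylated than all tested CpGs of that kind. A CpG was called CpG-poor with at most 4 listed CpGs within 100 bp on either side, itself included, and CpG-dense with at least 12. Only CpGs listed in a library count here, so CpG-rich DNA with few listed CpGs can fall in the CpG-poor or intermediate class. The Hoxa5 promoter sequence, for one, holds 29 CGs, of which 8 were listed. How much this entered the levels of these classes was not tested. CpG-poor Hox sites averaged 29.0% in control (261 CpGs), against 73.4% over all tested CpG-poor sites, and sites of intermediate density averaged 16.7% (896 CpGs) against 56.9%. CpG-dense Hox sites averaged 8.62% (1564 CpGs) and all tested CpG-dense sites 7.26%. The clusters were not alike. CpG-poor sites averaged 42.9% in HoxA and 32.7% in HoxD, but 22.5% in HoxB and 17.5% in HoxC, while CpG-dense sites averaged 12.8% in HoxA, 8.77% in HoxD, 5.51% in HoxB and 3.98% in HoxC. With 1 control library none of these differences between sets of sites has a test across samples.

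**Figure D1:**
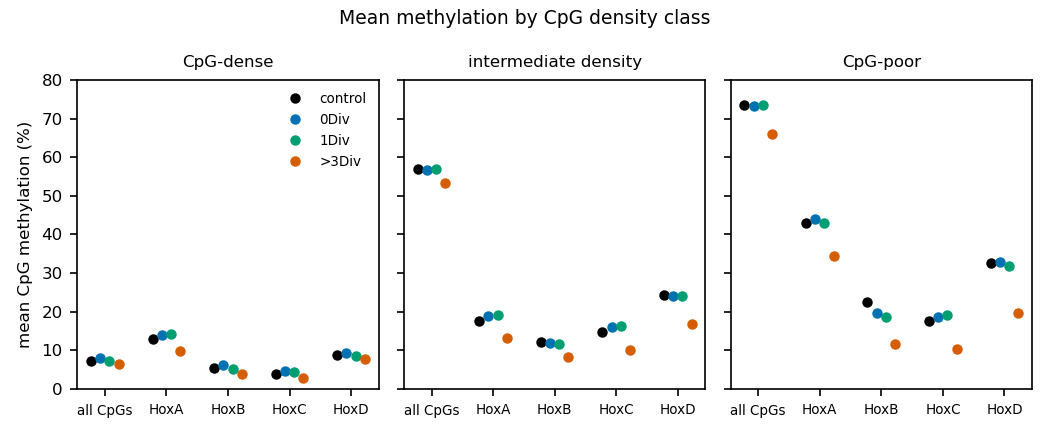
Mean CpG methylation (%, vertical axis) of the 4 libraries at CpG-dense, intermediate and CpG-poor sites, classed by listed CpGs, for all tested CpGs and for each Hox window. At CpG-poor sites all tested CpGs lie between 66.1% and 73.5%, and no Hox window exceeds 44.1% in any library.

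In HoxA, methylation was high between 10 and 60 kb into the window and low on either side. In RefSeq's gene order the window runs from Hoxa2, an anterior gene that patterns the hindbrain, to Hoxa13, a posterior gene of the distal limb and genital tract. By 10 kb bins counted from the low-coordinate end, control levels were 0.34% in the first bin (20 CpGs) and then 42.0%, 39.8%, 47.7% (3 CpGs only), 18.6% and 45.2% over the next 50 kb. The sixth of these bins holds the starts of Hoxa5 and Hoxa6. Beyond it the level dropped to 9.19% and stayed between 3.39% and 8.25% in the 5 bins to the end, which hold the starts of Hoxa11 and Hoxa13. The longest stretch with every tested CpG under 10% in all 4 libraries had 60 CpGs and spanned 7.204 kb (chr6:52183494-52190698). It ended 5.11 kb short of the Hoxa11 start.

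HoxD alternated between blocks of low and of partial methylation. The first 20 kb, with the start of Hoxd13, a distal limb gene, averaged 2.95% and 1.75% in control. The next bin, around Hoxd12, averaged 29.1%, the bin with Hoxd11 and Hoxd10 10.2%, and the bin with Hoxd9 32.0%. A stretch of 67 CpGs over 7.212 kb (chr2:74543096-74550308), with every CpG under 10% in all libraries, ran up to the start of Hoxd3 and just past it. Beyond Hoxd3 the level rose again, to 40.9% and 22.5% in the bins from 70 to 90 kb, and came down to 2.87% in the last bin, which holds the start of Hoxd1. Hoxd3 and Hoxd1 are the anterior members of the cluster.

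HoxB and HoxC were low over most of their length. No member start was placed in either, but non-Hox starts were placed in HoxB. One of them, Gm30134, lies between Hoxb13 and Hoxb9 in RefSeq's order and was placed 14.7 kb into the window. Another, Gm51876, lies just before Hoxb9 and was placed at 80.4 kb. The interval between them, sparse in listed CpGs, held the highest HoxB levels, 85.8% and 80.9% in bins of 3 CpGs each. From 80 kb on no bin exceeded 15.1% in control. HoxC bins ran from 1.47% to 21.9% in control, highest from 50 to 60 kb, with 16.8% from 60 to 70 kb. The longest stretches under 10% held 33 CpGs over 0.77 kb in HoxB and 26 CpGs over 0.801 kb in HoxC. All told, 51.7% of Hox CpGs and 41.5% of all tested CpGs were under 10% in all 4 libraries.

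**Figure D2:**
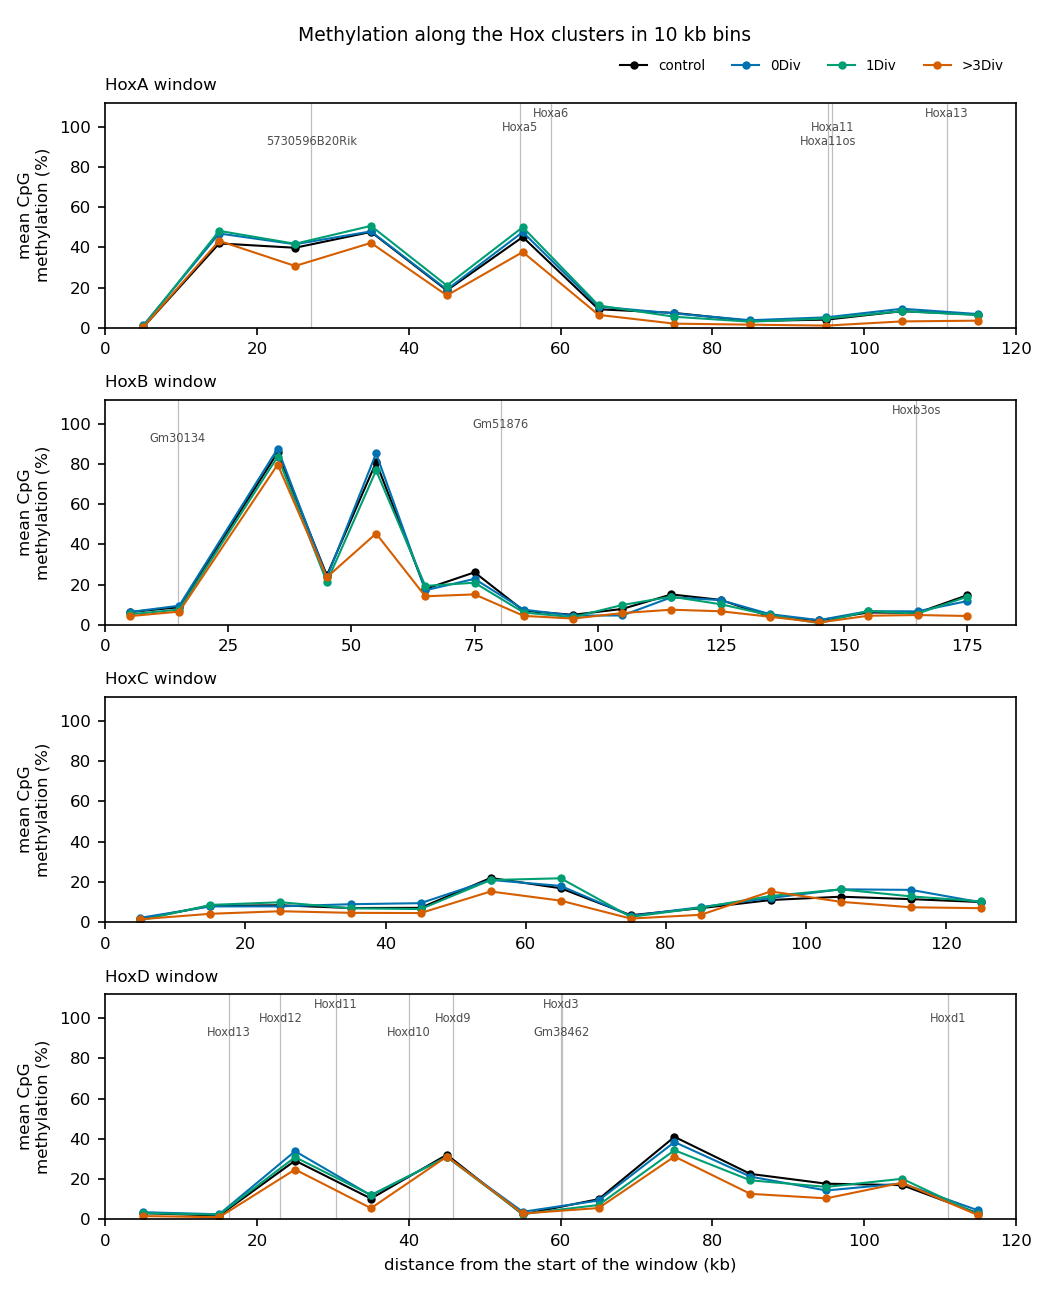
Mean CpG methylation (%, vertical axis) in 10 kb bins along each Hox window (kb from its start, horizontal axis) in the 4 libraries, with placed starts as vertical lines. HoxA drops from 45.2% to 9.19% in control past Hoxa6, and the HoxB peaks at 85.8% and 80.9% rest on 3 CpGs each.

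At the placed promoters, reads were summed over the tested CpGs and intervals are Wilson 95% intervals, which cover counting error only. Hoxa5, which acts in lung and axial skeleton development, had the highest level in the first 3 libraries: 44.0% (39.6 to 48.4) of 480 reads in control, 55.9% in 0Div, 54.0% in 1Div and 31.9% (26.4 to 37.9) of 248 reads in >3Div. The intervals of 0Div and 1Div lay above that of control and the interval of >3Div below it. Within this promoter 6 of the 7 CpGs were lower in >3Div than in control. The CpG 129 bases before the start fell most, from 37.2% of 78 reads to 5.88% of 34. The neighbouring Hoxa6 promoter had 27.1%, 27.9%, 25.1% and 23.2% in the same order of libraries, and its intervals overlapped. Hoxa11, which patterns the zeugopod of the limb and the uterus, had 4.11%, 3.16%, 2.66% and 2.39%. Hoxa13 had 1.18%, 1.21%, 0.122% and 0.241%.

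HoxD promoters were split in the same cells. Hoxd12, a posterior limb gene, had 34.7% (30.9 to 38.8), 43.0%, 39.5% and 41.9% (37.8 to 46.2). Hoxd9, a gene of limb and lumbar development, had 25.0% (21.1 to 29.4), 28.6%, 26.7% and 34.4% (31.0 to 38.0). These were the 2 partly methylated promoters with a >3Div level above control. Hoxd10, which acts in the hindlimb and its motor neurons, had 10.5% (7.79 to 14.0), 21.0%, 21.0% and 9.94% (7.84 to 12.5), so that 0Div and 1Div lay above control and >3Div did not. With equal weight per CpG the Hoxd10 control level was 14.6%. Hoxd13, Hoxd11, Hoxd3 and Hoxd1 stayed low: Hoxd13 had 0 of 179 reads methylated in control, which allows a level of up to 1.68% if 3 reads of the total are taken as the limit (Wilson upper bound 2.10%), and the highest value of these 4 genes in any library was 2.67%, for Hoxd11 in 0Div.

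Low and partly methylated starts thus lay next to each other, with Hoxd11 at 1.56% between Hoxd12 at 34.7% and Hoxd10 at 10.5% in control. The DNA just downstream of the starts was under 5% in control where the promoter was, and partly methylated where the promoter was. The levels themselves could differ from the promoter's. The CpGs counted within 1 kb include the promoter's own on that side, so the values are not independent of it. Within 1 kb downstream of the start the control mean was 0.72% at Hoxd13 (48 CpGs), 31.1% at Hoxd12 (33 CpGs), 2.50% at Hoxd11 (81 CpGs) and 22.6% at Hoxd9 (71 CpGs). At Hoxd10 the downstream mean was 27.3% in control and 45.5% in >3Div on 5 CpGs, next to a promoter at 10.5% and 9.94%. On HoxA the downstream control mean was 30.4% at Hoxa5 (47 CpGs, promoter 44.0%) and 52.9% at Hoxa6 (10 CpGs, promoter 27.1%). It was 2.03% at Hoxa11 (38 CpGs) and 1.64% at Hoxa13 (39 CpGs). Upstream levels could exceed the promoter's, with 45.3% at Hoxd9 (10 CpGs) and 44.1% at Hoxa6 (19 CpGs).

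As a yardstick, promoters of 22 homeobox, cofactor and Polycomb genes that are not among the Hox members were also placed by CG spacing. The looser rule that placed Hoxd3, with at least 5 listed CpGs within its window, was not applied to them. Of these promoters 10 were placed, 9 of them with tested CpGs. Among these 9 (Gsx1, Pbx2, Meis1, Meis3, Ezh2, Suz12, Jarid2, Bmi1 and Rnf2) control levels ran from 0% to 3.69% with a median of 0.656%, and all were under 5%. Ezh2 reached 14.3% in 0Div on a single CpG, and no other of the 9 passed 5% in any library. Of the 11 Hox promoters, 5 were over 10% in control and the other 6 under 5%.

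**Figure D3:**
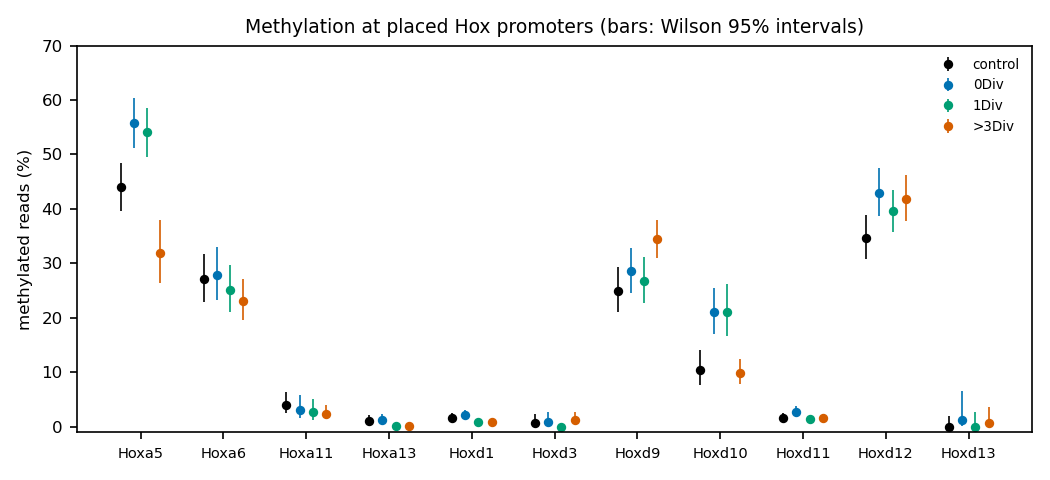
Methylated reads (%, vertical axis) at 11 placed Hox promoters in the 4 libraries, with Wilson 95% intervals as bars. Hoxa5, Hoxa6, Hoxd9, Hoxd10 and Hoxd12 lie between 9.94% and 55.9%, and the other 6 stay under 5%.

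Before division, Hox methylation moved little. In 0Div the window means were 18.1% in HoxA, 9.89% in HoxB, 11.6% in HoxC and 14.5% in HoxD, and the differences from control were 1.16, -0.15, 1.09 and 0.35 points. In 1Div they were 1.34, -0.78, 1.09 and -0.30 points. The HoxD difference of 0Div turned to -0.47 points when reads were pooled over CpGs. Counting error alone gives 0Div differences half-widths of 0.455 to 0.584 points at 95%. Over CpG-dense sites 0Div lay 0.72 points above control in the Hox windows and 0.82 points over all tested CpGs. Of the Hox CpGs 18.6% were at 0 in 0Div against 21.1% in control, and of all tested CpGs 21.3% against 27.5%. The smaller share at 0 in 0Div was thus not particular to the Hox windows.

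Tests were two-sided Fisher's exact tests on methylated and unmethylated reads with Benjamini-Hochberg adjustment over the whole genome. Calls needed an adjusted p under 0.05 plus a difference of 20 points or more for a CpG and of 10 points or more for a run, meaning at least 3 tested CpGs no more than 100 bp apart with their reads summed. No Hox CpG was called in 0Div against control, where genome-wide 0.00631% were called lower and 0.00450% higher, and at an unadjusted p under 0.05 there were 44 lower and 65 higher. Nor was any called in 1Div, with 0.00153% lower and 0.00220% higher genome-wide and 56 lower and 88 higher Hox CpGs at the unadjusted p. Of 241 Hox runs, 3 were called higher and 0 lower in 0Div (genome-wide 0.395% and 0.376%; 19 lower at an unadjusted p under 0.05), and 5 higher and 1 lower in 1Div (0.215% and 0.132%). All of these run calls were lost when read counts were divided by 1.685, the excess of the run differences between the control and 1Div libraries over counting error.

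The 3 runs that rose in 0Div covered the Hoxa5 promoter, the Hoxd10 promoter and a site in HoxC. At Hoxa5 (chr6:52154713-52154886, 8 CpGs) the run went from 46.6% to 56.8% (adjusted exact p = 0.0363). At Hoxd10 (chr2:74529787-74529967, 9 CpGs) it went from 10.5% to 21.0% (adjusted exact p = 0.00748). The HoxC run (chr15:102845902-102846098, 7 CpGs) went from 26.1% to 37.5% (adjusted exact p = 0.00111), was 29.3% in 1Div and 20.9% in >3Div. None of the 3 stayed up in >3Div. They were picked for a high level in 0Div, so its counting error enters the fall that followed, and how much was not tested.

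1Div had 5 higher runs, and Hoxd10 was again among them at 21.0% (adjusted exact p = 0.0441). Another HoxD run, 3.99 kb before the Hoxd10 start (chr2:74525933-74525986), went from 19.1% to 30.3% (adjusted exact p = 0.00946). In HoxC the run at chr15:102808119-102808192 went from 28.5% through 38.3% in 0Div to 49.2% (adjusted exact p = 0.000645), and the run at chr15:102841815-102841956 from 24.6% to 38.1% (adjusted exact p = 0.0149). In HoxA the run at chr6:52118713-52118857, 8.37 kb before the start of 5730596B20Rik, went from 47.2% to 63.7% (adjusted exact p = 0.0217). All 5 were lower again in >3Div, at 9.94%, 6.34%, 26.0%, 14.4% and 45.7%. As these runs were picked for a high level in 1Div, the same limit holds for their fall from 1Div. In the HoxC run at 26.0% the first CpG (chr15:102808119) was called lower than control on its own (adjusted exact p = 0.00123). With equal weight per CpG that run had 30.1% in control and 32.2% in >3Div. The single lower run, in the middle of HoxD (chr2:74565535-74565676, 16 CpGs), had 25.9% in control, 18.2% in 0Div, 15.7% in 1Div (adjusted exact p = 0.00402) and 23.3% in >3Div.

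In the cells that had divided more than 3 times, all 4 clusters were less methylated. The means were 13.0% in HoxA, 6.54% in HoxB, 7.10% in HoxC and 10.7% in HoxD. The differences from control were -3.92, -3.51, -3.45 and -3.47 points, with counting half-widths of 0.405 to 0.505 points, against -3.62 points over all tested CpGs. With reads pooled over CpGs, which weights each library by its own depth, the HoxA difference was -8.29 points and the HoxD difference -5.98 points. Bins lower than control numbered 10 of 12 in HoxA, 17 of 17 in HoxB, 12 of 13 in HoxC and 10 of 12 in HoxD. Among bins with at least 20 tested CpGs, 91.1% were lower in the Hox windows and 86.0% over the genome, and the shares of HoxA (81.8%) and HoxD (83.3%) were below the genome's. The HoxC bin from 90 to 100 kb went the other way, from 10.9% to 15.2% on 11 CpGs. Whether fewer cells carried methylated copies or each cell lost part of its methylation cannot be told apart in these bulk samples.

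How the Hox fall compared with that of the genome depended on the weighting of CpGs. With equal weight per CpG, Hox and all tested CpGs fell by about the same number of points, as given above. With reads pooled, the Hox level went from 13.0% to 7.24% and the level of all tested CpGs from 42.7% to 25.6%, a larger fall in points. Pooling weights each library by its own depth. Genome-wide, depth in >3Div was 1.64-fold that of control at CpGs under 5% and 0.720-fold at those at or over 80%. Pooled levels thus shift with depth even where the levels of CpGs stay the same. How much of the larger fall this made was not tested. CpGs were next compared within ranges of level. CpGs were grouped by their level in 1Div, a grouping chosen after the data were seen because 1Div enters neither of the differences that follow. Those between 20% and 80% changed by -9.97 points from control to >3Div in the Hox windows (593 CpGs) and by -8.94 points over all tested CpGs. From 0Div to >3Div the values were -10.2 and -8.88 points, and from control to 0Div 0.24 and -0.06 points. These sets did not start alike, with control means of 34.7% and 59.3%. In narrower ranges of the 1Div level, Hox and all tested CpGs changed by -8.55 and -6.33 points from control to >3Div (20% to 40%). They changed by -13.0 and -10.2 points at 40% to 60%, and by -11.0 and -9.35 points at 60% to 80%. Hox control means were lower in each of these ranges too. At or over 80% the changes from control to >3Div were -9.70 (46 CpGs) and -5.11 points, and the Hox value was carried by 9 HoxD CpGs at -29.1, with HoxA at -4.88 (31 CpGs). Under 5% they were -0.87 and -0.25 points. CpGs were also grouped by control itself, whose counting error enters the difference. Those between 20% and 80% changed by -11.6 points in the Hox windows (581 CpGs) and -7.89 points over all tested CpGs. The control means of these sets were 36.9% and 58.2%. CpGs under 5% in control changed by 0.22 (1318 CpGs) and 0.07 points.

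With equal weight per CpG, Hox sites changed by -1.75 points in the CpG-dense, -4.94 in the intermediate and -10.0 in the CpG-poor class. All tested sites changed by -0.81, -3.56 and -7.29 points. Pooled reads, which weight each library by its own depth, turned this order in the first 2 classes. CpG-dense Hox sites then went from 8.23% to 5.20% and all CpG-dense sites from 8.27% to 4.19%, and intermediate sites from 16.4% to 8.90% and from 57.5% to 39.8%. The clusters ordered differently by density: CpG-dense sites changed most in HoxA (-3.06 points) and CpG-poor sites most in HoxD (-13.1 points). The depth of >3Div at CpGs between 20% and 80% was 1.13-fold that of control in the Hox windows and 0.896-fold over all tested CpGs, and its part in these differences was not tested. With 1 library per group the difference between Hox and other sites could not be tested across samples.

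A run under 10% in control could not be called lower, since a call needs a fall of 10 points. In >3Div 42 of 241 Hox runs were called lower than control (17.4%, against 11.0% genome-wide), and 0 higher (0.577% genome-wide; 10 higher at an unadjusted p under 0.05). By cluster the called runs were 18 of 60 in HoxD, 11 of 67 in HoxB, 7 of 63 in HoxA and 6 of 51 in HoxC. By starting level 7 of 42 Hox runs between 10% and 20% in control, 32 of 62 between 20% and 80% and 3 of 7 at or over 80% were called lower, and of all runs 7.83%, 26.9% and 10.4%. Among runs at or over 10% in control, 37.8% of 111 Hox runs were called lower, and 15.7% of all such runs. These Hox runs had a median control level of 24.0% and a median of 461 reads, all such runs 85.1% and 296 reads, and the median changes were -7.77 and -3.44 points. Against 0Div, which shares >3Div with the first comparison, 44 Hox runs were lower (18.3%, against 11.2% genome-wide) and 0 higher (0.614% genome-wide; 7 at an unadjusted p under 0.05). Of the 117 Hox runs at or over 10% in 0Div, 37.6% were lower, against 15.9% genome-wide. The lists shared 31 runs, 73.8% of the first and 70.5% of the second. With runs built at a gap of 50 bp, 35 were lower and 2 higher than control.

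Single CpGs gave less. Against control 80 Hox CpGs were lower (2.94%, against 3.05% genome-wide) and 3 higher (0.110%, against 0.0865%), so their share was that of the background. Of the 628 Hox CpGs that started at 20% or more, 12.7% were lower, against 5.82% genome-wide. Their levels and depths differed. At or over 80% in control were 47 of these Hox CpGs and 357440 of the 547452 genome-wide. Between 20% and 80% the mean >3Div depth was 73.2 reads in the Hox windows and 62.5 genome-wide. Against 0Div 93 were lower (3.42%, against 3.22% genome-wide) and 1 higher (0.0888% genome-wide). Among CpGs at or over 20% in 0Div, 14.3% of 652 Hox CpGs were lower, against 6.10% genome-wide. The part of starting level and depth in these shares was not tested. With both directions counted, the called CpGs fell from 83 to 47 and from 94 to 61 when each CpG was thinned to its lowest depth.

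**Figure D4:**
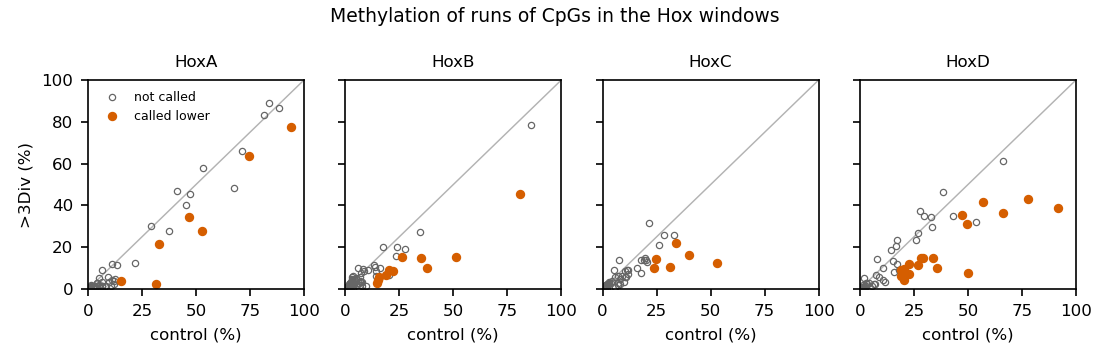
Methylation (%) of the 241 runs of CpGs in the Hox windows, control on the horizontal and >3Div on the vertical axis, with the line of equal levels. The 42 runs called lower (filled) lie under the line, 18 of them in HoxD, and 6 of them exceed 60% in control.

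In HoxD the called runs fell into 3 blocks. Between the starts of Hoxd11 and Hoxd10, 5 of 9 runs were called lower, and 8 of the 9 were at or over 10% in control. One, 0.78 kb before the Hoxd10 start (chr2:74529130-74529201, 8 CpGs), had 20.6% (18.0 to 23.4) in control, 23.0%, 28.6% and 4.11% (2.94 to 5.72), with an adjusted exact p of 1.55e-23. A second, 1.74 kb before that start (chr2:74528154-74528255), had 33.6%, 39.4%, 33.3% and 14.6% (adjusted exact p = 4.60e-15). Another, 1.40 kb after the Hoxd11 start (chr2:74521766-74521790), had 50%, 32.9%, 48.1% and 7.69%, with 64 and 143 reads in the first and last library (adjusted exact p = 1.78e-09). The Hoxd10 promoter itself, at the edge of this block, did not differ from control by the test (adjusted exact p = 0.967) but lay below 0Div (adjusted exact p = 4.08e-05).

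The second block followed Hoxd9, where 3 of 8 runs up to Hoxd3 were called lower, and 6 of the 8 were at or over 10% in control. The called runs included the most methylated run of HoxD, 2.21 kb after the Hoxd9 start (chr2:74538012-74538040, 3 CpGs). It had 91.7% (86.5 to 95) of 168 reads in control, 82.9% in 0Div, 90.8% in 1Div and 38.9% (27.0 to 52.2) of 54 reads in >3Div (adjusted exact p = 1.37e-12). Its first CpG went from 89.3% in control to 12.5% of 16 reads in >3Div, and its last from 91.1% to 27.3% of 22 reads. The CpG between them was not called on its own, so the fall of the run was not shared evenly by its CpGs. A run 3.29 kb after the start (chr2:74539060-74539156) had 77.8%, 71.2%, 72.7% and 42.9%. Over the first 1 kb after the Hoxd9 start the mean went from 22.6% to 26.0%, and that of the whole 10 kb bin, with the called runs in it, from 32.0% to 31.1%. Single CpGs outside those 2 runs were called lower too, such as chr2:74536068, with 40.8% in control and 15.2% in >3Div (adjusted exact p = 0.00665).

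The third block, between Hoxd3 and Hoxd1, held 9 called runs of 23, and 18 of the 23 were at or over 10% in control. The run at chr2:74566278-74566360 had 66.3%, 64.1%, 63.5% and 36.3% (adjusted exact p = 5.19e-06), and 28 CpGs at chr2:74584625-74584942 had 20.5%, 14.7%, 16.2% and 9.79% (adjusted exact p = 1.38e-14). Another run, of 14 CpGs at chr2:74576767-74577141, had 28.1%, 27.0%, 24.1% and 14.8% (adjusted exact p = 1.34e-12). This block held the highest control bin of HoxD, from 70 to 80 kb, which went from 40.9% through 38.3% and 34.3% to 31.1%. One further HoxD run, 0.47 kb after the Hoxd12 start (chr2:74513376-74513706, 18 CpGs), had 27.1% (24.9 to 29.3) of 1593 reads, 31.2%, 31.5% and 11.5% (9.92 to 13.4) of 1309 reads, with an adjusted exact p of 9.16e-24. The Hoxd12 promoter, beside it, showed no such fall, at 34.7% and 41.9%.

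All 3 CpGs called higher than control lay at these posterior HoxD genes. At chr2:74535716, 103 bases before the Hoxd9 start, the level was 25.9% of 27 reads in control, 22.7% in 0Div, 36.8% in 1Div and 73.1% of 52 reads in >3Div (adjusted exact p = 0.00472). The CpGs 152 and 168 bases before the same start had 44.4% and 50% in control and 68.0% and 67.4% in >3Div, without passing the test. At chr2:74513115, 46 bases after the Hoxd12 start, the levels were 46.4%, 55%, 50% and 67.4% (adjusted exact p = 0.0467), and at chr2:74513989, in the same gene's neighbourhood, 31.5%, 45.1%, 29.5% and 58.0% (adjusted exact p = 0.0176). Rises and falls thus lay within 1 kb of the start at Hoxd12 and within 3.29 kb of it at Hoxd9.

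**Figure D5:**
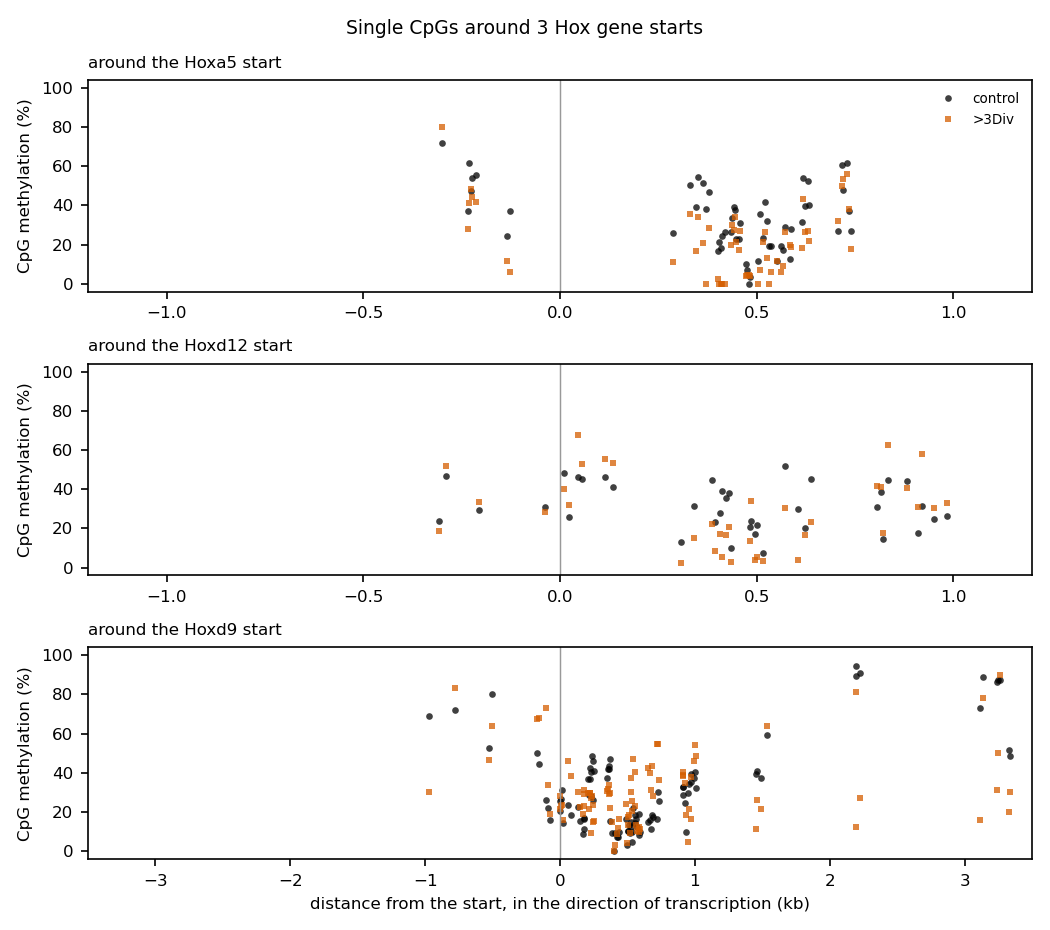
Methylation (%, vertical axis) of single CpGs around the starts of Hoxa5, Hoxd12 and Hoxd9 (kb from the start in the direction of transcription, horizontal axis) in the control and >3Div libraries. At Hoxa5 most >3Div values lie below control, whereas at Hoxd12 and Hoxd9 values on both sides of control are found within 1 kb of the start.

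In HoxA the runs called lower lay mostly at Hoxa5 and in the anterior part. Of runs at or over 10% in control, 1 of 4 was called before the 5730596B20Rik start and 3 of 8 from there to Hoxa5. Between Hoxa5 and Hoxa6 it was 1 of 2. By 10 kb bins the mean went from 39.8% to 30.7% at 20 to 30 kb and from 45.2% to 37.7% at 50 to 60 kb. It also went from 8.25% to 3.15% at 100 to 110 kb in the posterior part, and from 42.0% to 43.2% at 10 to 20 kb. Just past the Hoxa5 start, 47 CpGs over 454 bp (chr6:52153845-52154298) had 32.7% (31.0 to 34.5) of 2712 reads in control, 37.2% in 0Div, 40.6% in 1Div and 21.5% (19.7 to 23.4) of 1928 reads in >3Div (adjusted exact p = 5.83e-15). This run and the Hoxa5 promoter followed the same course, higher in 0Div and 1Div than in control and lowest in >3Div. The promoter run was 34.6% in >3Div (adjusted exact p = 0.0101 against control). At 1.80 kb after the Hoxa5 start, the most methylated HoxA run (chr6:52152781-52152796, 3 CpGs) had 94.1%, 97.2%, 93.5% and 77.4%, the last on 53 reads (adjusted exact p = 0.00499). Of its CpGs only the last (chr6:52152796) was called on its own, with 93.75% in control and 60.9% of 23 reads in >3Div. Near the start of 5730596B20Rik, 6 CpGs at chr6:52127506-52127596 had 52.9%, 53.1%, 60.8% and 28.0% (adjusted exact p = 5.76e-11), and the first of them had 51.0% of 100 control reads methylated and 0 of 77 >3Div reads, which allows a level of up to 3.90% by the same limit of 3 reads.

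In the posterior part of HoxA, too, most runs at or over 10% in control were not called. Between Hoxa11 and Hoxa13, 1 of 4 runs at or over 10% in control was called, and between Hoxa6 and the Hoxa11 region 1 of 7. Between Hoxa11 and Hoxa13, 3 CpGs at chr6:52202838-52202864 had 31.5% (24.1 to 40.0), 23.9%, 29.0% and 2.51% (1.16 to 5.37), with an adjusted exact p of 6.08e-13. The other called run (chr6:52174339-52174484) went from 15.3% to 3.64% (adjusted exact p = 8.33e-11). A run 4.98 kb before the Hoxa13 start (chr6:52215781-52215933) had 37.5%, 42.1%, 38.8% and 27.6%, a fall short of 10 points from control and called only against 0Div (adjusted exact p = 4.42e-05). Its first CpG went from 55.9% in control to 11.3% in >3Div and was called lower on its own (adjusted exact p = 7.12e-06). Not every methylated site fell: the runs at chr6:52150330-52150355, with 88.2% in control and 86.7% in >3Div, and chr6:52159438-52159643, with 84.0% and 89.2%, were not called (adjusted exact p = 0.818 and 0.193). The latter lies 0.87 kb before the Hoxa6 start.

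In HoxB the largest changes lay in the methylated interval between Gm30134 and Gm51876. The run at chr11:96109918-96109939 had 80.9%, 85.3% and 76.9% in the first 3 libraries and 45.5% (29.8 to 62.0) of 33 reads in >3Div (adjusted exact p = 0.00103), while a run 0.324 kb away (chr11:96110263-96110335) had 86.1% and 78.7% and was not called. Nearer to Hoxb9, the run at chr11:96125172-96125200 had 51.2%, 52.1%, 36.8% and 15.4% (adjusted exact p = 1.78e-07). Beyond Gm51876, where most HoxB genes lie in RefSeq's order, 17 CpGs at chr11:96166162-96166429 had 26.2% (24.3 to 28.1), 23.7%, 26.9% and 15.2% (13.8 to 16.8), with an adjusted exact p of 1.17e-16. Further along, 11 CpGs at chr11:96228155-96228306 went from 15.0% to 4.14% (adjusted exact p = 2.34e-17).

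HoxC had no strongly methylated run, and its largest change was at the run with the highest control level. That run (chr15:102796175-102796246, 4 CpGs) had 52.9% (47.3 to 58.4) of 308 reads, 51.6%, 48.5% and 12.3% (8.85 to 16.9) of 260 reads, with an adjusted exact p of 3.81e-23. Other called runs were at 40.1% in control and 16.5% in >3Div (chr15:102809340-102809415, adjusted exact p = 1.25e-11) and 31.1% and 10.7% (chr15:102823028-102823091, adjusted exact p = 0.00143). A run at chr15:102793875-102793905, one of the 3 with the highest control level in HoxC, had 34.1%, 30.8%, 43.2% and 21.8% (adjusted exact p = 0.000701). The 2 HoxC runs that had risen in 1Div ended at 26.0%, not called against control (adjusted exact p = 0.786), and at 14.4%, called lower (adjusted exact p = 0.00451).

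Across CpGs within the Hox windows, control and >3Div levels correlated with r = 0.851 over the 2721 CpGs, and control and 0Div levels with r = 0.930, where all tested CpGs gave 0.966 and 0.987. The values were 0.921 in HoxA, 0.844 in HoxB, 0.719 in HoxC and 0.772 in HoxD for >3Div. These are descriptions across CpGs that share libraries and often reads, and a narrow range of levels lowers them.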

How the data were processed

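DNA methylation was read by RRBS in 4 libraries, 1 per group, and groups followed the sample labels. The authors deposited, for each library, CpG positions with whole-number counts of methylated and unmethylated reads on mm9, per the submitters' processing notes. Not given in the sources used here were the conversion check, the duplicate handling, the aligner and the caller. Which column holds methylated reads was read from the values, and positions are printed as deposited, without knowledge of whether they count from 0 or 1. Levels were computed as methylated over all reads at CpGs with at least 10 reads in all libraries. Fisher's exact tests (numba 0.67.0, checked against scipy 1.17.1) were adjusted over all 1045368 CpGs or 99566 runs of the genome, with Python 3.11.15 and pandas 2.3.3. The tests were checked on simulated data with known changes. Without molecular identifiers, and with several CpGs on a read, counts overstate the independent evidence: p-values come out too small and intervals cover counting error only.

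RefSeq promoter sequences (GRCm38.p6) were placed on the deposited positions where at least 8 listed CpGs fell in the sequence, every listed CpG of the window fell on a CG of the sequence, and the chromosome held 1 such place on either strand. Hoxd3 was placed with at least 5 listed CpGs, unique within the HoxD window, a rule added after the data were seen, as were the non-Hox starts used as landmarks. No coordinate of another build was used, and RefSeq's table gave gene order only. The rule for named sites covered all placed Hox promoters, all runs called in any comparison, the 3 most methylated and 3 most changed runs and the longest low stretch of each window, and up to 5 called CpGs per comparison. Of the called runs, those described singly were picked from this rule's list with their values known, and the others are given as counts. The members and lists were chosen with earlier results of these data known. Alternatives were coverage minimums of 5 and 20 reads, thinning, a cap on coverage, pooled or weighted means, overdispersion, other minimum differences and run gaps of 50 and 200 bp.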

Additional observations from a re-analysis of the deposited data

How the results depend on the processing

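All 4 window means stayed below control in >3Div under every alternative tried, and most settings moved values by less than counting error. With reads pooled over CpGs >3Div differed from control by -8.29 points in HoxA, -4.22 in HoxB, -4.01 in HoxC and -5.98 in HoxD, and from 0Div by -9.02 in HoxA, -3.88 in HoxB and -5.51 in HoxD. Pooling also gave HoxD -0.47 points in 0Div and -0.74 in 1Div against control, the first with its sign turned. The sign also turned, within counting error, for HoxB in 0Div at 5 reads (from -0.15 to 0.14) and for HoxD in 1Div when weighted by control reads (from -0.30 to 0.07). Weighting by control reads gave HoxD -4.07 against control and -4.59 against 0Div. With at least 20 reads, HoxB differed by -0.71 in 0Div from control, and >3Div from 0Div by -2.84 in HoxB and -3.97 in HoxC. Called CpGs, in both directions together, numbered 83 for >3Div against control and 94 against 0Div, and changed to 47 and 61 when thinned, 50 and 61 with overdispersion, and 138 and 150 with the minimum difference halved. Called runs for the same comparisons changed to 75 and 77 with the minimum difference halved. Runs called in 0Div numbered 3, and changed to 1 at 5 reads, 0 with overdispersion and 6 with the difference halved. In 1Div they numbered 6, and changed to 3 when thinned and 0 with overdispersion. The causes of these shifts were not tested. No paired analysis was possible because each group had 1 library. Depth limits single CpGs most, with a median of 57 to 79 reads per Hox CpG, and the lowest-depth named runs rest on 33 to 56 reads in >3Div.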
